A study of Mus musculus with 6 samples.

Results

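The Hox genes encode homeodomain transcription factors that give cells their position along the body axis. They were studied in whole skin of mice with and without the transcription factor Junb in the epidermis. The members are all rows of the deposited gene table whose symbol is Hoxa, Hoxb, Hoxc or Hoxd followed by a number. This gave 39 genes of 23951, with 11 in the HoxA cluster, 10 in HoxB, 9 in HoxC and 9 in HoxD. The rule itself uses gene symbols only.

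RNA sequencing had been done on skin from 3 control mice (JunB +/+) and 3 JunBΔep mice (JunB dep), all C57Bl/6 and 6 to 7 months old. JunBΔep mice carry floxed Junb alleles and a Cre driven by the keratin 5 promoter, so the deletion reaches the epidermis and its appendages while dermal and immune cells keep Junb. Per the study, controls were littermates, both sexes were used and the JunBΔep skin came from lesions. The sources used here do not state the body site. The mice are called control or JunBΔep replicates 0, 1 and 2, as the labels number them.

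Hox genes lie in 4 clusters that arose by duplication, and genes with the same number in different clusters are paralogs. Within a cluster, low-numbered (anterior) genes are active from the hindbrain and neck backwards, and high-numbered (posterior) genes towards the tail and limb ends. Adult skin keeps a positional Hox pattern, above all in dermal fibroblasts, and Hoxc13 also acts in the hair follicle. Hox proteins bind DNA together with TALE homeodomain partners such as Pbx, Meis and Pknox proteins. Polycomb complexes hold silent Hox genes repressed, and retinoic acid induces anterior Hox genes.

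On the mm9 build the HoxA members lie on the minus strand of chromosome 6. HoxB spans chr11:96055630-96229570, HoxC chr15:102751534-102867274 and HoxD chr2:74506367-74603200, all on the plus strand. Of the 39 members, 26 overlap another annotated gene and 13 of these overlap one on the opposite strand. The sources used here do not say whether quantification used strand, so values of overlapping genes are uncertain. Hoxa3 is the widest case, since its annotation (chr6:52113358-52163338) covers Hoxa4, Hoxa5 and Hoxa6 and reaches into Hoxa2.

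The values are FPKM (fragments per kilobase of transcript, scaled to the mapped fragments), which sum to 481078 to 630363 per mouse. The number of reads is unknown. Junb itself measured 59.3, 72.4 and 56.9 FPKM in the controls against 129.6, 42.8 and 28.1 FPKM in the JunBΔep group, each in the order of replicates 0, 1 and 2. JunBΔep replicate 0 was thus above all controls, so Junb in whole skin does not check its label, and results are also given without that library. That library also stood apart in other genes, so that its labelled tissue is in doubt, and "skin" below is the label. Krt14 was listed at 0 there against 837 to 1304 FPKM in the other 5 mice. The 8 keratinocyte markers did not all go the same way there, and their median was 0.29 above the control mean on the log2 scale. Krt5 was at 3725 FPKM against 1588 to 2538 FPKM, and Krt1 at 4466 FPKM against 446 to 958 FPKM. Krt15 was at 80.7 FPKM against 947 to 2388 FPKM, and Lor at 823 FPKM against 1408 to 3011 FPKM. Whether the Krt14 value is a failed estimate was not tested. The 7 mucosal epithelium markers summed to 3853 FPKM there against 39.4 to 104.5. Most of that sum was Krt13 at 1990 FPKM, Krt4 at 1356 FPKM and Sprr3 at 398 FPKM, each below 1 FPKM in the other mice. Krt76 and Pax9 were also highest in that library. Krt78 was not, at 43.2 FPKM against 23.75 to 54.2 FPKM. Crnn was lower there than in control replicate 2 (73.9 FPKM) and JunBΔep replicate 1 (80.4 FPKM). The 5 adipocyte markers summed to 59.0 FPKM there against 1210 to 8949. Control replicate 0 held liver transcripts beside those of skin, with a sum of 1665 FPKM for 5 markers against 0.897 to 29.5 in the others.

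All controls and JunBΔep replicates 1 and 2 had Hox genes above 1 FPKM in each of the 4 clusters, 13 to 23 genes per mouse. JunBΔep replicate 0 had 4, of which 3 were HoxD genes and the other was Hoxc13. Of the 39, 27 members averaged 0.1 FPKM or more and were tested, 8 in HoxA, 8 in HoxB, 6 in HoxC and 5 in HoxD. Of the other 12, Hoxa13, Hoxc11 and Hoxd12 were listed at 0 in every mouse, and the remaining 9 (Hoxa6, Hoxa11, Hoxb1, Hoxb13, Hoxc10, Hoxc12, Hoxd1, Hoxd11 and Hoxd13) never exceeded 0.376 FPKM. The members nearest the limit were Hoxc12 with a mean of 0.0833 FPKM outside it and Hoxb9 with 0.113 FPKM inside it. Hoxb9 and Hoxc9 passed only through the JunBΔep group, with control means of 0.0570 and 0.0807 FPKM against 0.168 and 0.377 FPKM, so they could enter the test only by being high there. Of these 12 members, 9 belong to paralog groups 9 to 13, the posterior end of their clusters.

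**Figure D1:**
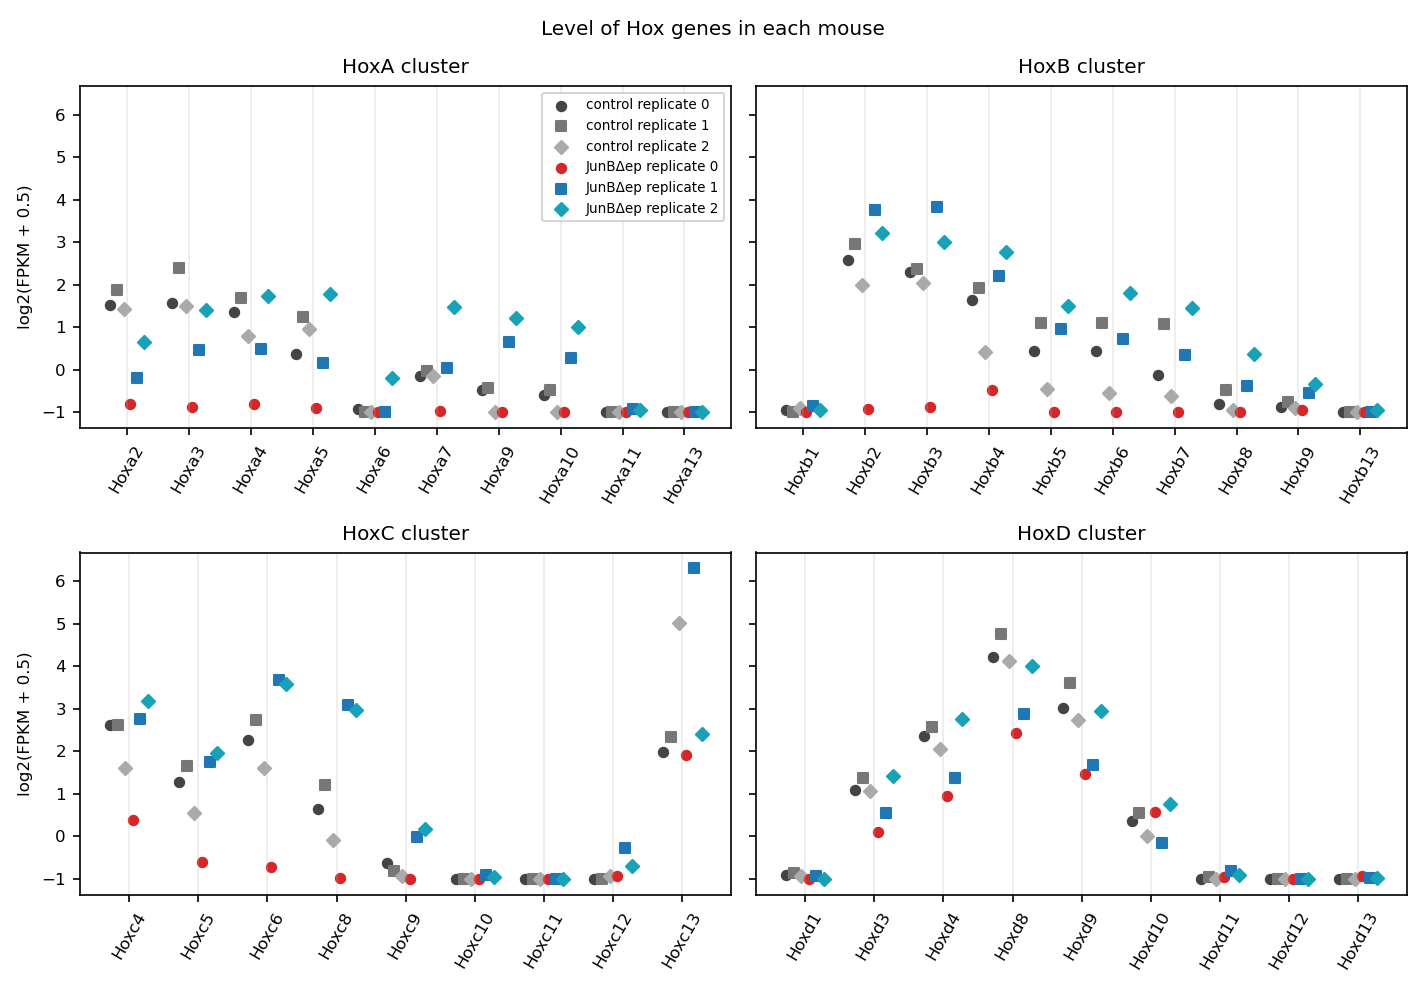
Level of Hox genes in each mouse, with 1 panel per cluster, genes in paralog order on the x axis and log2(FPKM + 0.5) on the y axis. Each symbol is 1 mouse, and the floor at -1 is a listed value of 0. JunBΔep replicate 0 (red circles) is the lowest of the 6 mice for 25 of the 27 tested genes.

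HoxD had the highest summed level in control replicates 0 and 1, with 44.4% and 45.6% of the Hox FPKM, while in control replicate 2 HoxC took 45.7% and HoxD 34.2%. With Hoxc13 left out, HoxD genes made up 46.6%, 47.7% and 55.1% of the summed Hox FPKM in control replicates 0, 1 and 2. In JunBΔep replicates 0, 1 and 2 they made up 83.7%, 15.7% and 29.3%. JunBΔep replicate 0 was therefore above all controls and the other 2 JunBΔep mice below them.

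The total that these shares refer to differed widely between JunBΔep mice. Without Hoxc13 it was 70.5, 99.0 and 52.8 FPKM in the controls against 12.2, 84.1 and 112 FPKM in the JunBΔep group. In JunBΔep replicate 0 the HoxA, HoxB and HoxC genes other than Hoxc13 summed to 1.99 FPKM, where controls ranged from 23.7 to 51.8 FPKM and the other JunBΔep mice reached 70.9 and 78.9 FPKM. HoxD genes still summed to 10.2 FPKM there, against 29.1 to 47.3 FPKM in controls. With Hoxc13 left out, HoxB and HoxC shares were above those of all controls in JunBΔep replicates 1 and 2. HoxB took 41.6% and 28.1% there against 16.3% to 21.2% in controls, and HoxC without Hoxc13 took 36.1% and 28.3% against 12.5% to 18.6%. With Hoxc13 counted, HoxC took 67.1% and 31.3% there and 22.4%, 20.2% and 45.7% in the controls, so that JunBΔep replicate 2 lay below control replicate 2.

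**Figure D2:**
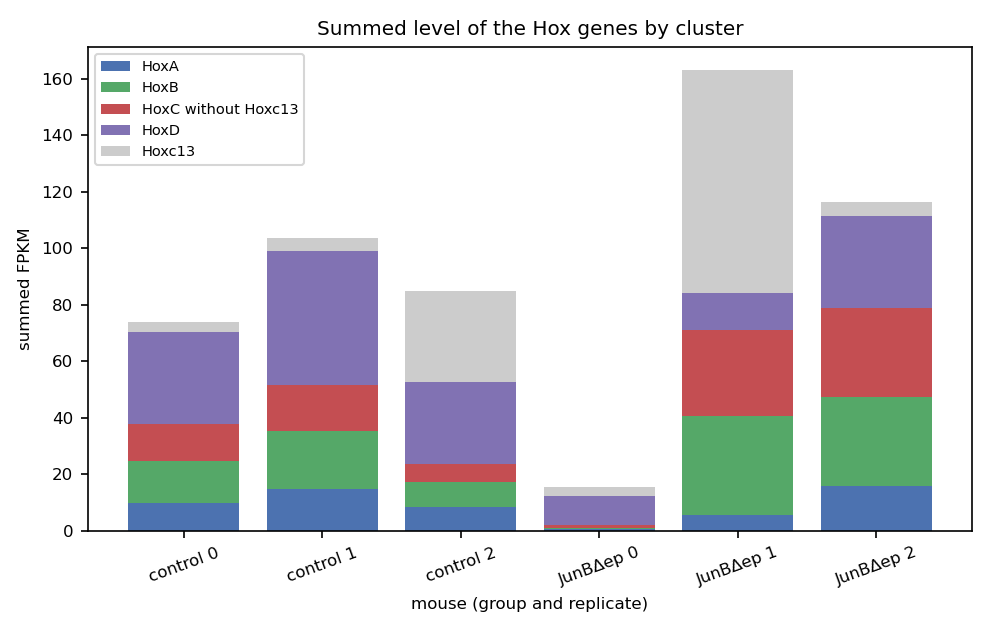
Summed FPKM of the Hox genes in each mouse, stacked by cluster, with Hoxc13 in grey. Each bar is 1 mouse. The bar of JunBΔep replicate 0 reaches 15.5 FPKM, and Hoxc13 alone adds 79.1 FPKM to JunBΔep replicate 1 and 32.2 FPKM to control replicate 2.

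No Hox gene passed the test between the genotypes. In limma on log2(FPKM + 0.5) over 17021 genes, at an adjusted p below 0.05, 0 of 27 Hox genes were lower in JunBΔep skin and 0 were higher, beside 1.38% of all tested genes called lower and 0% called higher. At an unadjusted p below 0.05, 3 Hox genes were lower and 0 higher, beside 6.13% and 1.43% of all genes. The same 3 genes, Hoxa2, Hoxa3 and Hoxd8, were the only tested members whose groups did not overlap, beside 9.16% of all genes apart in the lower direction and 5.62% in the higher direction, where no tested member stood. A share of 3 in 27 is near this background. For any single gene, exact two-sided permutation of 3 against 3 mice has 0.1 as its smallest p.

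Hoxa2 patterns the hindbrain and the skeleton of the branchial arches. It lies at chr6:52112350-52115412 with 2 exons, and measured 2.37, 3.18 and 2.20 FPKM in the controls against 0.0756, 0.375 and 1.09 FPKM in the JunBΔep group, each in the order of replicates 0, 1 and 2. All 3 JunBΔep mice were below all controls. The group means were 2.58 ± 0.519 FPKM and 0.513 ± 0.521 FPKM (SD, n = 3 each). The log2 fold change was -1.72 with a standard error of 0.40 (limma, unadjusted p = 0.00502, adjusted p = 0.183). Without JunBΔep replicate 0 it was -1.37 with a standard error of 0.33 (limma, adjusted p = 0.271). Array quality weights called it, with a limma adjusted p of 0.0314 against 0.0532 to 0.737 in the other alternatives.

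Hoxd8, a gene of the middle of its cluster that is active in the trunk, had the highest mean of the HoxD genes. It lies at chr2:74542672-74545990 and measured 18.1, 26.9 and 17.1 FPKM in the controls against 4.89, 6.87 and 15.7 FPKM in the JunBΔep group. JunBΔep replicate 2 was just below the lowest control and the other 2 far below. The log2 fold change was -1.26 with a standard error of 0.44 (limma, adjusted p = 0.512), and -0.93 without JunBΔep replicate 0 (limma, adjusted p = 0.686).

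Hoxa3, needed for the thymus and parathyroid glands, measured 2.46, 4.76 and 2.36 FPKM in the controls against 0.0440, 0.888 and 2.15 FPKM in the JunBΔep group. Its groups were apart, with JunBΔep replicate 2 close to the lowest control. The log2 fold change was -1.49 with a standard error of 0.61 (limma, adjusted p = 0.661).

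The bulk measurement cannot tell fewer cells of a type from less RNA per cell. Fibroblast markers also differed between mice. Of the 10 markers, 8 were lower in JunBΔep skin with a median log2 fold change of -0.52 and 0 called, and they summed to 1154 to 2750 FPKM per control against 808 to 1772 FPKM per JunBΔep mouse. With the libraries levelled on these markers, which added 0.43 to every log2 fold change, the values were -1.29 for Hoxa2, -0.84 for Hoxd8 and -1.06 for Hoxa3, and the groups no longer stood apart for any of the 3.

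The promoters of Hoxa2 and Hoxd8 are shown as those of the member with the smallest p in HoxA and in HoxD. They are the 250 bases before the RefSeq start on GRCm38.p6, Hoxa2 at chr6:52164832-52165081 on the minus strand and Hoxd8 at chr2:74704365-74704614 on the plus strand. Capitals mark the motifs found among the 5 searched.
Hoxa2: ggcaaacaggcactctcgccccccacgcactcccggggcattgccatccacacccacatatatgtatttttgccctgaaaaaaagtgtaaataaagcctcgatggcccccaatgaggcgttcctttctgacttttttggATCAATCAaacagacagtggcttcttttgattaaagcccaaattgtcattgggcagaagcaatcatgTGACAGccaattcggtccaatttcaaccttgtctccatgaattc
Hoxd8: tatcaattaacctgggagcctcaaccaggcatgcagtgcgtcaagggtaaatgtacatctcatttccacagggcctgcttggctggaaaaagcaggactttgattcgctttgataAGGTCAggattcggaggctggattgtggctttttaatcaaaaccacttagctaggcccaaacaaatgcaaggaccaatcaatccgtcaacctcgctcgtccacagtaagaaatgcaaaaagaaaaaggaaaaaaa

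The Hoxa2 window holds the Hox-Pbx motif TGATNNAT, read on the other strand, from base -111 and the Meis motif TGACAG from base -44, counted from the start. The Hoxd8 window holds a single copy of AGGTCA, which is only part of a retinoic acid receptor site, from base -135. Promoters of 22 Hox symbols were in the RefSeq table, with 24 windows, and those of Hoxb9 and Hoxc9, the members with the smallest p in HoxB and HoxC, were not. On both strands, TGATNNAT was in 4 of the 24 windows and in 7.68% of all 32851 promoters, TGACAG in 2 windows and 15.9%, and AGGTCA in 6 windows and 14.0%. The AP-1 motif TGANTCA, the kind of site that Junb dimers bind, was in 1 window, that of Hoxd11, and in 6.75% of all promoters. The homeodomain core TAATTA was in 2 windows, both of Hoxd11, and in 4.84%.

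**Figure D3:**
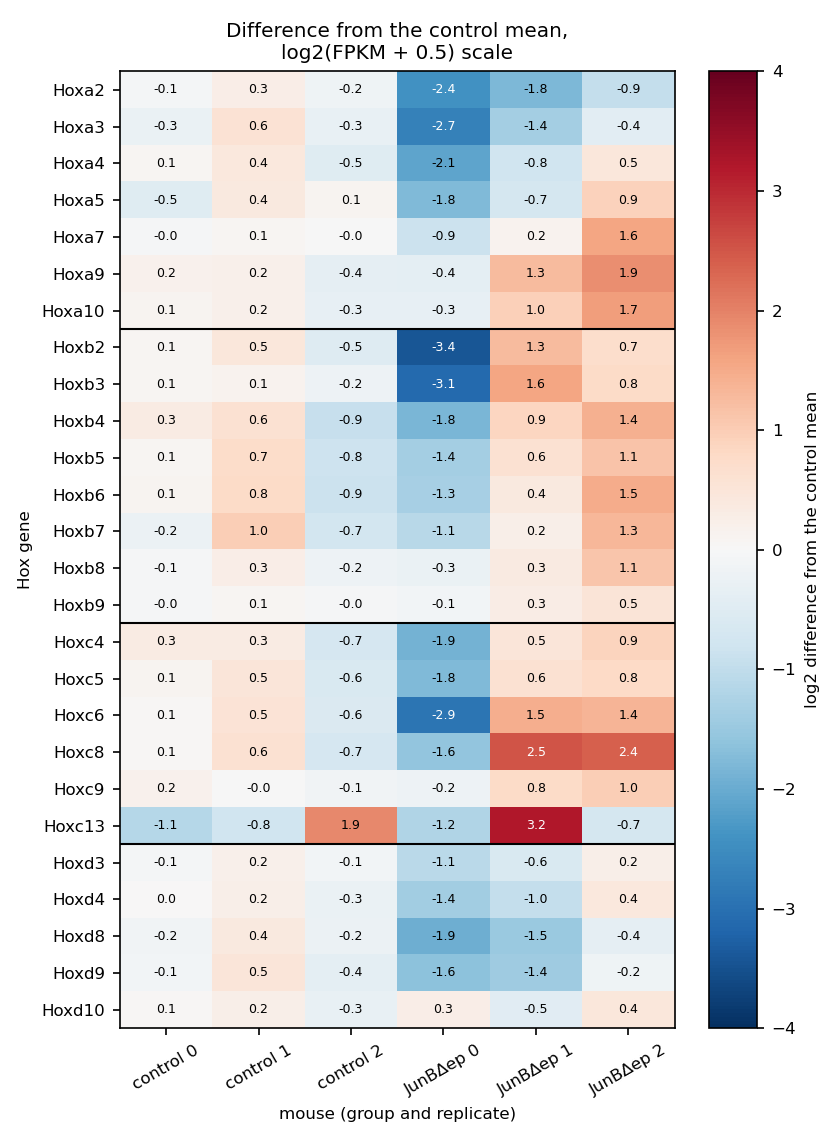
Difference of each mouse from the control mean for 26 tested Hox genes, on the log2(FPKM + 0.5) scale, with genes in rows by cluster and mice in columns. Blue is below the control mean and red above it. The column of JunBΔep replicate 0 is blue for all genes shown but Hoxd10, while the HoxB and HoxC rows of JunBΔep replicates 1 and 2 are red except for Hoxc13 in replicate 2.

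The JunBΔep mice did not share 1 Hox profile. The median difference of the 27 genes from the control mean was -1.38 in JunBΔep replicate 0, 0.35 in replicate 1 and 0.80 in replicate 2, against 0.05, 0.33 and -0.31 in the controls. JunBΔep replicate 0 was the lowest of the 6 mice in 25 of 27 members, beside 31.8% of all tested genes. The exceptions were Hoxd10, lowest in JunBΔep replicate 1, and Hoxa10, listed at 0 in both JunBΔep replicate 0 and control replicate 2. JunBΔep replicate 2 was the highest in 17 members, JunBΔep replicate 1 in 5 and control replicate 1 in 5. Between pairs of controls the mean absolute log2 difference over the 27 genes was 0.38 to 0.84. It was 1.20 to 2.19 between JunBΔep replicate 0 and each other mouse, and 0.89 between JunBΔep replicates 1 and 2. By this measure JunBΔep replicates 1 and 2 lay within 0.69 to 1.30 of the controls.

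All 8 tested HoxB genes were lowest in JunBΔep replicate 0. Hoxb2, a hindbrain gene at chr11:96212946-96217003, measured 5.51, 7.32 and 3.47 FPKM in the controls against 0.0274, 13.1 and 8.80 FPKM in the JunBΔep group. Its neighbour Hoxb3 measured 4.46, 4.67 and 3.61 FPKM in the controls against 0.0472, 13.7 and 7.50 FPKM in the JunBΔep group. For both genes the controls lay between a JunBΔep mouse near 0 and 2 JunBΔep mice above every control. The log2 fold changes of -0.49 for Hoxb2 and -0.25 for Hoxb3 had standard errors of 1.23 and 1.19. Without JunBΔep replicate 0 they were 0.98 and 1.18, with limma adjusted p of 0.577 and 0.318.

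Hoxb4, known for its action in blood stem cells, measured 2.66, 3.32 and 0.849 FPKM in the controls against 0.218, 4.13 and 6.31 FPKM in the JunBΔep group. Hoxb5, a trunk gene, measured 0.874, 1.65 and 0.234 FPKM in the controls against 1.46 and 2.36 FPKM in JunBΔep replicates 1 and 2, with a listed 0 in JunBΔep replicate 0. Hoxb6 measured 0.853, 1.64 and 0.192 FPKM in the controls against 1.16 and 3.04 FPKM in JunBΔep replicates 1 and 2, with a listed 0 in JunBΔep replicate 0. In all 3 genes control replicate 2 was the lowest control and JunBΔep replicate 2 the highest mouse. Hoxb7, Hoxb8 and Hoxb9 had means of 0.866, 0.230 and 0.113 FPKM, with JunBΔep replicate 0 lowest and JunBΔep replicate 2 highest in each.

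All 6 tested HoxC genes were also lowest in JunBΔep replicate 0. Hoxc4, the only anterior member of its cluster, measured 5.63, 5.64 and 2.57 FPKM in the controls against 0.800, 6.26 and 8.60 FPKM in the JunBΔep group. Hoxc5 measured 1.94, 2.65 and 0.968 FPKM in the controls against 0.156, 2.89 and 3.39 FPKM in the JunBΔep group. Hoxc6, active in the thorax at chr15:102828688-102842312, measured 4.31, 6.24 and 2.58 FPKM in the controls against 0.112, 12.3 and 11.5 FPKM in the JunBΔep group. In each of these, JunBΔep replicates 1 and 2 were above all controls and replicate 0 below them.

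Hoxc8, which patterns the thoracic skeleton and lies at chr15:102821053-102824698, had the highest log2 fold change of the 27 genes. It measured 1.07, 1.80 and 0.446 FPKM in the controls against 0.0094, 8.05 and 7.33 FPKM in the JunBΔep group. The log2 fold change was 1.11 with a standard error of 1.14 over all mice. Without JunBΔep replicate 0 it was 2.44 with a standard error of 0.41 (limma, unadjusted p = 0.00200, adjusted p = 0.110). Hoxc9, a thoracic gene, measured 0.147, 0.0701 and 0.0246 FPKM in the controls against 0.492 and 0.639 FPKM in JunBΔep replicates 1 and 2, with a listed 0 in JunBΔep replicate 0.

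Leaving out JunBΔep replicate 0 raised the median of each cluster but gave no call. In this fit 0 Hox genes passed at an adjusted p below 0.05, beside 0.0646% of all genes higher and 0.705% lower. At an unadjusted p below 0.05, 8 Hox genes were higher (Hoxc8, Hoxa9, Hoxc9, Hoxa10, Hoxc6, Hoxb3, Hoxb9 and Hoxb2) and Hoxa2 was lower, beside 2.04% and 6.05% of all genes. Of the 8, Hoxc9 and Hoxb9 had entered the test only through the JunBΔep group, which leaves 6 that reached the filter in both groups. JunBΔep replicates 1 and 2 were above all controls in 13 members, 3 in HoxA, 5 in HoxB, 5 in HoxC and 0 in HoxD, beside 11.1% of all genes. The 13 include Hoxb9 and Hoxc9, and 11 are left without them. They were below all controls in Hoxa2, Hoxa3 and Hoxd8, beside 13% of all genes.

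**Figure D4:**
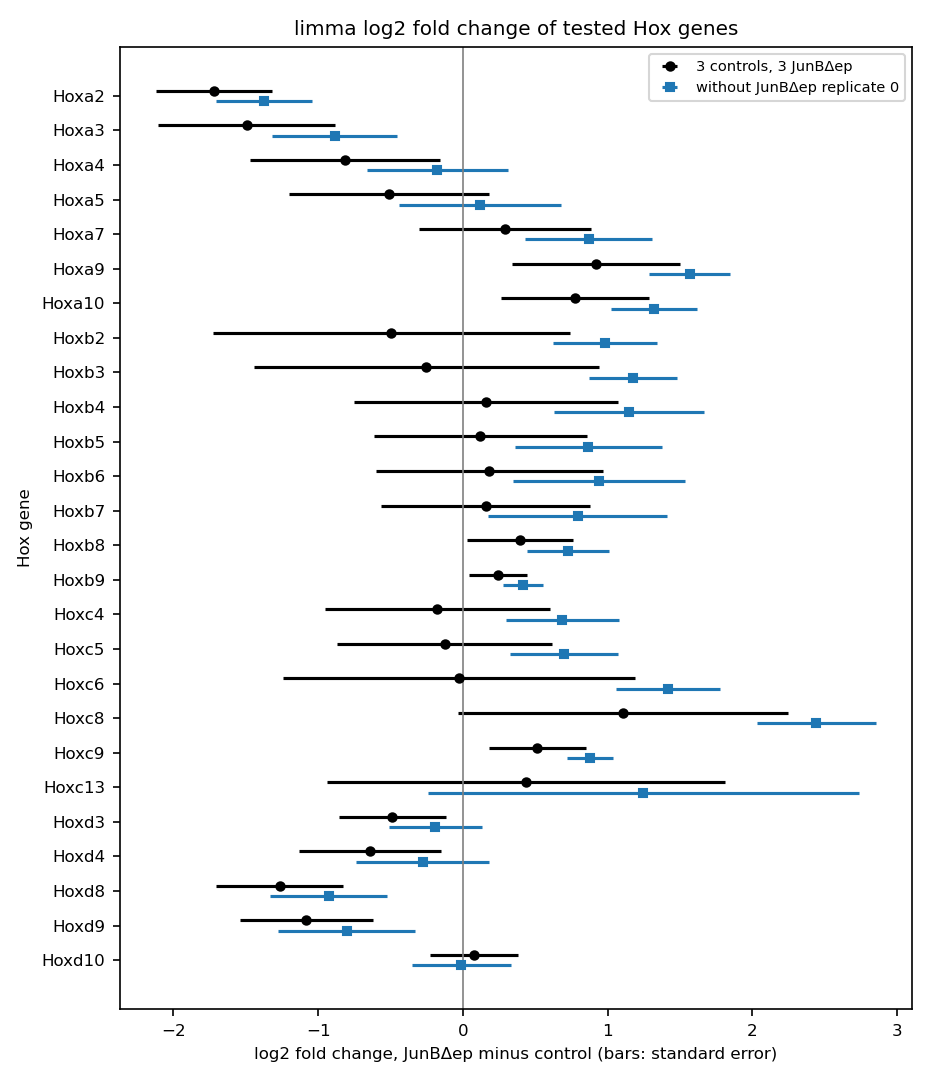
limma log2 fold change (JunBΔep minus control) of 26 tested Hox genes with its standard error, over all 6 mice (black) and without JunBΔep replicate 0 (blue). Without that mouse all HoxB and HoxC genes lie above 0, and Hoxa2 is at -1.37.

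In HoxA, anterior and posterior genes had log2 fold changes of different sign, a difference that was not tested, and none was called. The anterior genes Hoxa2, Hoxa3 and Hoxa4 had log2 fold changes of -1.72, -1.49 and -0.81 over all mice and -1.37, -0.89 and -0.18 without JunBΔep replicate 0. The posterior genes Hoxa9 and Hoxa10 were at 0.92 and 0.77 over all mice and at 1.57 and 1.32 without that library. Between them lay Hoxa5 at -0.51 and Hoxa7 at 0.29, which were at 0.12 and 0.87 without it. Over all mice the 95% intervals of Hoxa4, Hoxa5, Hoxa7, Hoxa9 and Hoxa10 all included 0. Hoxa9, active in blood progenitors, measured 0.226, 0.244 and 0.00692 FPKM in the controls against 1.08 and 1.85 FPKM in JunBΔep replicates 1 and 2, with a listed 0 in JunBΔep replicate 0. The limma adjusted p of Hoxa9 was 0.722 over all mice and 0.128 without JunBΔep replicate 0.

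Hoxa4 measured 2.09, 2.76 and 1.23 FPKM in the controls against 0.0731, 0.897 and 2.86 FPKM in the JunBΔep group. Hoxa5, needed for lung development, measured 0.797, 1.86 and 1.47 FPKM in the controls against 0.0357, 0.623 and 2.96 FPKM in the JunBΔep group. Both had JunBΔep replicate 2 as the highest mouse and replicate 0 as the lowest, so that the groups overlapped.

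Across the 4 clusters, 9 of the 10 tested members of paralog groups 1 to 4 had a negative log2 fold change, with a median of -0.55. Of the 7 tested members of groups 9 to 13, 6 had a positive one, with a median of 0.44. The filter had a part in this count, since it admitted Hoxb9 and Hoxc9 only through their JunBΔep values, and without them it was 4 of 5. Without JunBΔep replicate 0, 6 of 10 and 5 of 7 kept these signs, with medians of -0.18 and 0.88. With Hoxb9 and Hoxc9 left out of that fit as well, 3 of 5 members of groups 9 to 13 were positive, with a median of 1.25. Within group 9, Hoxd9 was at -1.08 and Hoxa9 at 0.92. Hoxb9 and Hoxc9 were at 0.24 and 0.52, signs that the filter favoured. In group 8 the signs also differed, with Hoxd8 at -1.26, Hoxb8 at 0.40 and Hoxc8 at 1.11. No difference between paralogs was tested.

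In 4 of the 5 tested HoxD genes, JunBΔep replicates 0 and 1 were below all controls. This pair was chosen after the values were seen, and it was below all controls in 9 of the 27 Hox genes and in 20.5% of all tested genes. Hoxd9, a gene of the trunk and forelimb, measured 7.58, 11.7 and 6.19 FPKM in the controls against 2.29, 2.73 and 7.27 FPKM in the JunBΔep group. Hoxd4 measured 4.65, 5.51 and 3.69 FPKM in the controls against 1.45, 2.09 and 6.26 FPKM in the JunBΔep group. Hoxd3 measured 1.63, 2.11 and 1.60 FPKM in the controls against 0.570, 0.972 and 2.18 FPKM in the JunBΔep group. The groups overlapped in these 3 genes through JunBΔep replicate 2. The log2 fold changes were -1.08 for Hoxd9, -0.64 for Hoxd4 and -0.49 for Hoxd3, with limma adjusted p of 0.677, 0.722 and 0.722. Hoxd10, a more posterior gene of the limb, was the exception, at 0.979 FPKM in JunBΔep replicate 0 beside 0.503 to 0.977 FPKM in controls. Its log2 fold change was 0.08.

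Over the tested members of each cluster, the median log2 fold change was -0.55 in HoxA, 0.16 in HoxB, 0.20 in HoxC and -0.64 in HoxD. Over all 27 it was -0.03, with 13 genes higher and 14 lower, beside 0.03 over all tested genes. The HoxA and HoxD medians were negative and the HoxB and HoxC medians positive under each scaling tried, but the HoxB and HoxC signs depended on single mice. Without JunBΔep replicate 2 the HoxB median was -0.45 and the HoxC median -0.15. Without JunBΔep replicate 1 they were -0.02 and -0.50. Without control replicate 2 the HoxB median was -0.27, and without control replicate 0 the HoxC median was -0.006. The HoxC sign also depended on Hoxc9, which had entered the test only through the JunBΔep group. A filter at a mean of 1 FPKM left out Hoxc9 and no other tested HoxC gene. With it the HoxC median was -0.03. Blocking on the runs of sample numbers put the HoxC median at -0.41. The median over all 27 was 0.06 with quantile normalization, 0.40 with fibroblast levelling and 0.44 with array quality weights, and -0.37 with a filter at a mean of 1 FPKM and -0.44 with the number series block. Without JunBΔep replicate 0 the medians were -0.03 in HoxA, 0.91 in HoxB, 1.06 in HoxC and -0.28 in HoxD, and 0.73 over all 27, beside 0.03 over all genes.

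The sample names carry numbers that fall in 2 series, a first with control replicates 0 and 1 and JunBΔep replicate 0 and a second with control replicate 2 and JunBΔep replicates 1 and 2. The labels do not say what the numbers stand for. Within the first series the median log2 difference between genotypes was -1.77, with 26 of 27 Hox genes lower in JunBΔep skin. Within the second it was 0.93, with 8 of 27 lower. Hoxa2 was lower in both, by -2.50 and -1.20, as were Hoxa3, by -2.86 and -0.58, and Hoxd8, by -2.06 and -0.68. Hoxc8 was at -1.90 in the first and 3.11 in the second. Each series has 1 mouse in one of the groups, so no test was made within them. The sexes also differed between mice, since Xist was at 27.6 to 34.2 FPKM in control replicate 1 and JunBΔep replicates 1 and 2 and no higher than 0.0274 FPKM elsewhere. Without JunBΔep replicate 0, both remaining JunBΔep mice were of the second series and had Xist. Of the controls, only replicate 2 was of that series and only replicate 1 had Xist. The fit without JunBΔep replicate 0 therefore cannot fully separate genotype from series or sex. The part of sex in the Hox values was not tested.

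Hoxc13, which drives hair keratin genes in the follicle, followed another pattern than its cluster. It lies at chr15:102751534-102759245 and measured 3.47, 4.55 and 32.2 FPKM in the controls against 3.31, 79.1 and 4.85 FPKM in the JunBΔep group. One mouse of each group was high. The same 2 mice were high in the hair keratin Krt85, chosen after its values were seen, with 180 FPKM in control replicate 2 and 340 FPKM in JunBΔep replicate 1 against at most 5.68 FPKM in the others. The log2 fold change of Hoxc13 was 0.44 with a standard error of 1.38 (limma, adjusted p = 0.919).

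Markers of the cell types in skin also differed between the mice. In JunBΔep replicate 0, where Hox genes were lowest, the median difference from the control mean was 0.13 for fibroblast markers, 0.29 for keratinocyte markers, 1.26 for immune cell markers, -0.41 for endothelial markers and -6.80 for adipocyte markers. In JunBΔep replicate 1, with a Hox median of 0.35, it was -0.96 for fibroblast markers, -0.29 for keratinocyte markers, -0.997 for immune cell markers, -1.05 for endothelial markers and -0.45 for adipocyte markers. In JunBΔep replicate 2, with a Hox median of 0.80, it was -0.55 for fibroblast markers, -0.08 for keratinocyte markers, -0.23 for immune cell markers, 0.75 for endothelial markers and 1.50 for adipocyte markers. The 8 skeletal muscle markers were lower in all JunBΔep mice, with medians of -3.56, -3.51 and -2.26, and 6 were called, beside 1.38% of all genes. Of these markers 0 were called with fibroblast levelling, with the replicate block, with the number series block and without any 1 control or JunBΔep replicate 1, 1 was called without JunBΔep replicate 0 and 2 with no filter. The part of tissue make-up in the Hox values was not tested.

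**Figure D5:**
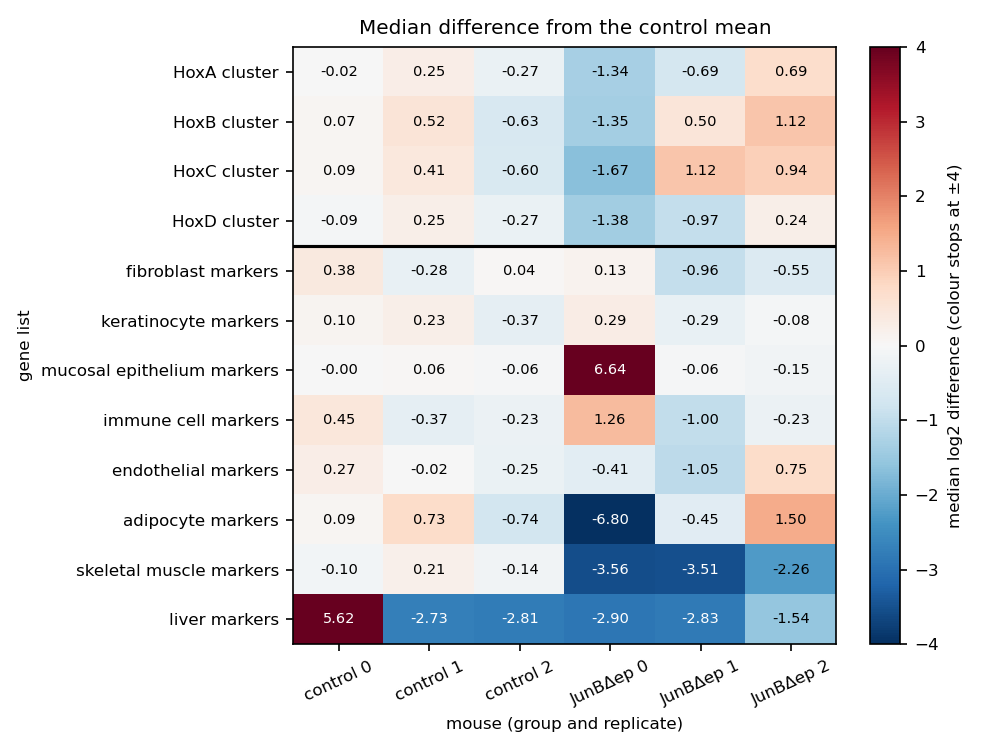
Median log2 difference from the control mean in each mouse (columns) for the tested genes of each Hox cluster (top 4 rows) and for lists of cell type markers (rows below). Colour stops at 4 in either direction. In JunBΔep replicate 0 all 4 Hox clusters are between -1.67 and -1.34 while fibroblast markers are at 0.13 and adipocyte markers at -6.80.

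The partners and regulators of Hox genes gave no call. Of the 11 TALE cofactors, all tested, 7 were higher and 4 lower, with a median log2 fold change of 0.12. The cofactor gene Pknox2 measured 4.59, 4.44 and 4.33 FPKM in the controls against 1.47, 1.32 and 1.87 FPKM in the JunBΔep group. All JunBΔep mice were below all controls, with JunBΔep replicate 0 between the other 2. Its log2 fold change was -1.28 with a standard error of 0.21 and just missed the threshold (limma, adjusted p = 0.0540). The next in this list were Tgif1 at 0.50 and Pbx4 at -0.54, with limma adjusted p of 0.722 for both. Of the 23 Polycomb and Trithorax genes tested, 14 were higher and 9 lower with a median of 0.18, and the smallest p were those of Wdr5 at 0.38, Men1 at 0.34 and Suz12 at 0.45.

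Of the list of retinoic acid and Cdx inputs, 12 genes were tested, none of them a Cdx factor. Of the 12, 4 were higher and 8 lower, with a median of -0.10. The retinoic acid receptor gene Rarb measured 2.07, 2.04 and 1.91 FPKM in the controls against 0.966, 0.956 and 1.15 FPKM in the JunBΔep group. Its log2 fold change was -0.72 with a standard error of 0.19 (limma, adjusted p = 0.262). The receptor gene Rxrg was at -1.95 and the retinaldehyde dehydrogenase gene Aldh1a1 at -2.50, with limma adjusted p of 0.338 and 0.422. The related enzyme gene Aldh1a3 was at 2.67 (limma, adjusted p = 0.436).

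Of 10 tested genes that flank the clusters, 4 were higher and 6 lower with a median of -0.10, and none was called. Lnp, beside HoxD, measured 5.97, 5.05 and 5.52 FPKM in the controls against 2.79, 3.26 and 2.50 FPKM in the JunBΔep group, with all JunBΔep mice below the controls (log2 fold change -0.85, limma adjusted p = 0.192). Atp5g1, beside HoxB, had a log2 fold change of -0.82, and Mtx2, also beside HoxD, of 0.31. Lnp and Mtx2, both next to HoxD, thus had opposite signs.

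Few non-coding RNAs of the clusters were measured. The antisense transcript Hoxd3os1 measured 1.33, 2.03 and 0.932 FPKM in the controls against 0.113, 0.254 and 0.993 FPKM in the JunBΔep group. Its order of mice was that of Hoxd9, with JunBΔep replicate 0 lowest and replicate 2 among the controls. The log2 fold change was -1.09 with a standard error of 0.40 (limma, adjusted p = 0.570). The microRNA precursor Mir196a-1 in HoxB measured 0.226, 0.472 and 0.207 FPKM in the controls and 0.234 FPKM in JunBΔep replicate 2, with a listed 0 in the other JunBΔep mice. Hotair, Hottip and Hoxa11os had means of at most 0.0123 FPKM, and Mir10a, Mir10b, Mir196a-2 and Mir196b were listed at 0 in all mice.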

How the data were processed

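Poly(A) RNA of 6 skin samples was sequenced with strand-specific libraries. Per the study's methods, reads were aligned with TopHat 2.0.10, Bowtie 1.0.0 and SAMtools 0.1.19 to mm9 with iGenomes transcripts, and the authors deposited FPKM per gene. Cufflinks is in the submitters' processing notes. Its role and any further scaling were not stated. The authors' test on read counts was not repeated.

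Values were compared as log2(FPKM + 0.5), which understates changes of low genes, with limma 3.58.1 in R 4.3.3 and an intensity trend. Two-sided p-values over the 17021 genes averaging 0.1 FPKM or more were adjusted by Benjamini-Hochberg, with a threshold of 0.05. The procedure was tested on simulated data. P-values compare the genotype difference with the spread between these mice as limma estimates it. Hox members and gene lists were chosen with earlier results of these data known. Values in every mouse are given for members at a mean of 1 FPKM or an unadjusted p below 0.05, with others added after their values were seen. Listed genes were named by adjusted p or the 3 smallest p. Positions are from GENCODE vM1 on mm9. Mll1 and Prac were not matched. One HoxA member enters the counts and medians but is not reported here. Tables and figures used Python 3.11.15, pandas 2.3.3 and matplotlib 3.10.9. The 19 alternatives changed pseudocount, filter, scaling, variance model, blocks or mice.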

Additional observations from a re-analysis of the deposited data

How the results depend on the processing

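The count of called Hox genes was 0 in both directions in all alternatives except array quality weights, which weighted JunBΔep replicate 0 at 0.228 and called 1 lower gene, Hoxa2 (-1.63, limma adjusted p = 0.0314, against 0.0532 to 0.737 in its other alternatives). Hox genes lower at an unadjusted p below 0.05 numbered 0 with fibroblast levelling (1.95% of all genes), 5 with array weights (11.2%) and 1 to 9 with single mice left out (9 without JunBΔep replicate 2, beside 10.9% of all genes, 1 without control replicate 0 or 1 or JunBΔep replicate 0 or 1). Those higher numbered 4 with array weights (8.91% of all genes) and 0 to 8 with mice left out, all 8 without JunBΔep replicate 0 (2.04%). Groups apart in the lower direction numbered 0 with fibroblast levelling (2.24% of all genes) and 3 to 9 with mice left out (5 without control replicate 2, beside 13.1% of all genes, and 9 without JunBΔep replicate 2, beside 20.5%, against 10.4% to 13% without any other mouse). Those apart in the higher direction numbered 2 with no filter (Hoxc12 and Hoxd13, beside 4.38% of all genes) and 0 to 13 with mice left out (13 without JunBΔep replicate 0, beside 11.1%, and 1 without JunBΔep replicate 1, beside 9.62%). The cause was not tested. Counts of apart and lowest genes under alternatives were added after seeing the data.

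All genes called numbered 235 as reported, 1 with fibroblast levelling, 496 with array weights, 0 with the replicate block, 0 with the number series block, 166 with no filter and 0 to 251 with mice left out (0 without any 1 control or JunBΔep replicate 1, 131 without JunBΔep replicate 0). The equal replicate numbers did not pair the mice, with correlations of deviations of 0.12, -0.23 and -0.43, and with the replicate block 3 Hox genes were still lower at an unadjusted p below 0.05.

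With all 6 mice there were 19 changes of sign, in 11 genes. With array weights, log2 fold changes were 0.76 (Hoxb2), 1.00 (Hoxb3), 0.27 (Hoxc4), 0.44 (Hoxc5), 1.10 (Hoxc6) and -0.21 (Hoxd10). With fibroblast levelling they were 0.18 (Hoxb3), 0.25 (Hoxc4), 0.30 (Hoxc5) and 0.40 (Hoxc6). With a pseudocount of 0.1 they were -0.018 (Hoxb4), -0.19 (Hoxb5), -0.10 (Hoxb6) and -0.036 (Hoxb7). With the number series block they were -0.11 (Hoxb4), -0.048 (Hoxb5) and -0.45 (Hoxc13). Hoxc6 was at 0.14 with a pseudocount of 1 and 0.062 with quantile normalization. With mice left out, the ranges were -1.23 to 0.12 (Hoxa5), -0.35 to 0.87 (Hoxa7), -1.37 to 0.98 (Hoxb2), -1.18 to 1.18 (Hoxb3), -0.47 to 1.15 (Hoxb4), -0.39 to 0.87 (Hoxb5), -0.47 to 0.94 (Hoxb6), -0.43 to 0.79 (Hoxb7), -0.72 to 0.69 (Hoxc4), -0.59 to 0.70 (Hoxc5), -0.78 to 1.42 (Hoxc6), -0.94 to 1.39 (Hoxc13) and -0.10 to 0.35 (Hoxd10). With mice left out the median log2 fold change ranged from -0.59 (without JunBΔep replicate 2) to 0.73 (without JunBΔep replicate 0) over all Hox genes, from -1.01 to -0.03 in HoxA, -0.45 to 0.91 in HoxB, -0.50 to 1.06 in HoxC and -1.17 to -0.28 in HoxD, with the same 2 mice at the ends except in HoxC, which was lowest without JunBΔep replicate 1. The HoxB median turned to -0.07 with a pseudocount of 0.1 and -0.01 with the number series block, and the HoxC median to -0.03 with a filter at 1 FPKM and -0.41 with that block.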
